A study of Saccharomyces cerevisiae with 25 samples.

Results

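The first 45 min of phosphate starvation in budding yeast were followed in 4 of 25 RNA sequencing libraries of 1 time course. They are the library from cells in medium with high phosphate (0 min) and the libraries taken 15, 30 and 45 min after transfer to medium without phosphate. All genes with a deposited value in each of these 4 libraries were compared, which made 4971 of 6650 named genes. The strain was BY4741, labelled wild type, a haploid laboratory strain of mating type a in which HIS3, LEU2, MET17 and URA3 are deleted, in every library alike. Cells had grown overnight with high phosphate, were washed and were moved, and whether the cells of the 0 min library were washed is not stated, so handling and loss of phosphate cannot be told apart. Each time is 1 library, and differences from 0 min therefore carry no p-value. The 4 libraries at 60, 75, 90 and 105 min played no part in sorting the genes and are given as later values.

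Yeast senses phosphate through the PHO pathway. With phosphate at hand, the cyclin Pho80 and the kinase Pho85 phosphorylate the transcription factor Pho4 and keep it out of the nucleus. When phosphate runs short, the inhibitor Pho81 holds the kinase back, and Pho4, with its partner Pho2, switches on genes for phosphate uptake, phosphatases and polyphosphate synthesis. Pho4 binds the letters CACGTG, known as an E-box.

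The sequences below show the letters that recur before the genes described most closely, in capitals, each with 10 bases on either side, read 5′ to 3′ on the strand of the gene, from the RefSeq genome of build R64. Windows of 600 bases, from 700 to 101 bases before each start codon, were searched on both strands. CACGTG lay in 81.8% of the 22 windows of the PHO regulon, a list made of genes known as Pho4 targets, against 7.65% of the 5921 windows of all genes. The windows of PPN1, KCS1, PHM8 and PHM7 hold none. PHO84 and VTC3, high at once, and SPL2, which reached the largest difference, are shown with both of their matches. PHO12 and PHO11, near-identical copies on different chromosomes, have the same letters around theirs.
PHO84 (chrXIII:26221-26246, minus strand): ttaatagttcCACGTGgacgtgttat
PHO84 (chrXIII:26199-26224, minus strand): ttatttccagCACGTGgggcggaaat
VTC3 (chrXVI:517348-517373, minus strand): tgcgagggccCACGTGgcttaataca
VTC3 (chrXVI:517314-517339, minus strand): cagtcgcaagCACGTGcatgcgattt
SPL2 (chrVIII:375446-375471, minus strand): tatttttgctCACGTGaccgacaagg
SPL2 (chrVIII:375232-375257, minus strand): atgatgtacgCACGTGggcgaaagtt
PHO12 (chrVIII:551806-551831, plus strand): ttggcgttcaCACGTGggtttaaaaa
PHO11 (chrI:225167-225192, plus strand): ttggcgttcaCACGTGggtttaaaaa
PHO5 (chrII:431189-431214, minus strand): ttggcactcaCACGTGggactagcac

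Genes outside the pathway are shown with 2 other kinds of motif. AGGGG, the stress response element bound by Msn2 and Msn4, lay in 91.2% of the windows of the induced stress response list, against 40.7% of all windows. AAAATTTT and GATGAG, known from promoters of ribosome biogenesis genes, lay in 71.4% and 69.6% of that list's windows, against 12.8% and 31.5% of all windows. Matches of different motifs can overlap, and a match is a description of letters, not of binding.
HSP42 (chrIV:806411-806435, plus strand): gggcgaatacAGGGGcggccttggc
RTC3 (chrVIII:280256-280280, plus strand): gtctctgtatAGGGGcacggcgaat
ENP1 (chrII:714574-714601, minus strand): atcggaaatgAAAATTTTtaaaaatcga
DBP2 (chrXIV:413484-413511, plus strand): ctcatcgcagAAAATTTTtccttcagtt

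Levels are given as log2 RPM, the deposited log2 of reads per 1000000, and a difference is a level minus that at 0 min, so that 1 log2 unit is 2-fold. In time order the libraries held 1425608, 1258006, 1217172 and 1221312 reads, recovered from the steps between low values, and 5156 to 5204 listed genes. Intervals in brackets are 95% counting intervals of a difference from those reads. They leave out variation between cultures. RPM are not scaled by gene length, so levels of different genes are not compared. All 6 mating type a marker genes were listed in all 4 libraries, STE2 with 537 to 604 reads. STE3 was the single one of 4 markers of mating type alpha listed in all 4, with 27 to 41 reads, and none of the 4 deleted genes was listed. In RNA from whole cultures, a change in some cells and a change of RNA per cell cannot be told apart.

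Most transcripts stayed near their level in high phosphate, while the number at least 2-fold away from it was larger at each later time. The median difference over all genes was 0.03 at 15 min, 0.02 at 30 min and 0.04 at 45 min, with an SD over genes of 0.44, 0.48 and 0.53. At least 2-fold above 0 min were 113 genes at 15 min (2.27% of those compared), 160 at 30 min (3.22%) and 180 at 45 min (3.62%). At least 2-fold below were 55 genes at 15 min (1.11%), 75 at 30 min (1.51%) and 118 at 45 min (2.37%). Higher genes outnumbered lower ones at every time. Adding 10 RPM before the log, which damps low genes, left 62, 69 and 99 genes higher and 10, 25 and 50 lower. With at least 30 reads required in each library, 71, 92 and 110 were higher and 14, 36 and 70 lower.

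The 458 genes that passed 2-fold at any of the 3 times, 266 higher (5.35%) and 192 lower (3.86%), were sorted by course. A difference was called receding when its peak at 15 or 30 min exceeded the 45 min value by at least 0.5 log2 units. It was growing when 45 min lay at least 0.5 beyond 15 min, and immediate when neither held and 15 min was already at 2-fold. Among higher genes 69 were immediate (1.39%), 87 growing (1.75%) and 53 receding (1.07%). Among lower genes 25 were immediate (0.503%), 80 growing (1.61%) and 50 receding (1.01%). The other 57 higher and 37 lower genes met none of the rules. The difference that defines the kind lay beyond its counting interval in all 69 immediate and 66 of 87 growing higher genes, but in 34 of 53 receding ones. Among lower genes it did so in 23 of 25, 70 of 80 and 21 of 50, so receding lower genes are the least certain. Just under the 2-fold limit were OPI10, STU2 and TRM2 and just over it YMR144W, PAC1 and RPC11, all within 0.01 log2 units of it.

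**Figure D1:**
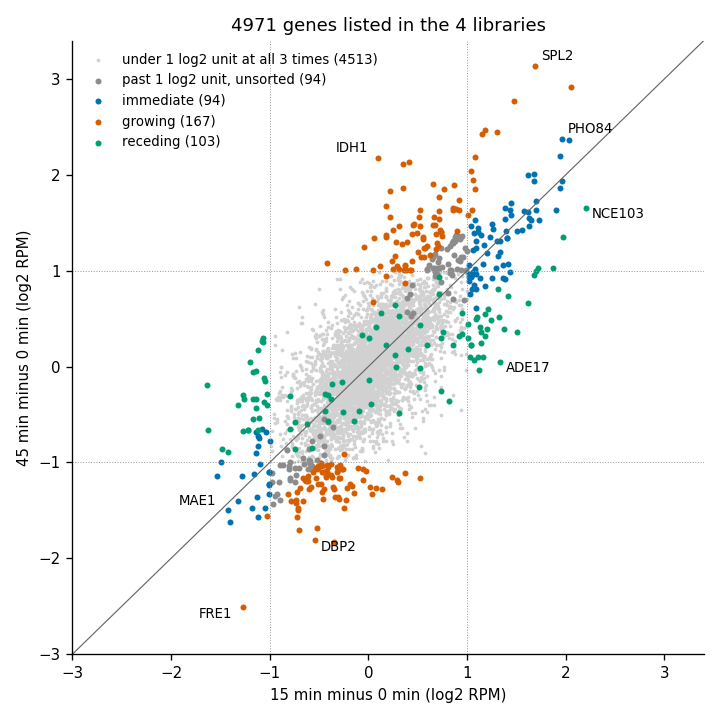
Each point is 1 of 4971 genes, with its difference from 0 min in log2 RPM at 15 min (x axis) and at 45 min (y axis), coloured by kind of change. Dotted lines mark 2-fold, and the diagonal marks equal differences. Growing genes lie farther from 0 at 45 min than at 15 min, with SPL2 highest and FRE1 lowest, and receding genes near the centre had their peak at 30 min.

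The kinds were set by the first 45 min, and the 60 to 105 min libraries show where their genes stood afterwards. Immediate higher genes had a median difference of 1.32, 1.24 and 1.34 at 15, 30 and 45 min, and of 1.15, 0.91, 0.95 and 1.06 at 60, 75, 90 and 105 min. Growing higher genes had medians of 0.53, 1.02 and 1.40, and later of 1.22, 1.00, 0.92 and 1.05. Receding higher genes had medians of 1.07, 1.00 and 0.39, and later of 0.65, 0.65, 0.74 and 0.73. Averaged over 60 to 105 min, 36 of 67 immediate, 39 of 75 growing and 6 of 41 receding higher genes listed in all 4 later libraries still stood at least 2-fold above 0 min. Of the lower genes 1 of 19 immediate, 5 of 74 growing and 0 of 39 receding stood at least 2-fold below it. All these values share the 0 min library. The genes were picked for their distance from that library, so part of a later return toward it is built in. A share of all genes for the 60 to 105 min average is not given, so these counts have no background beside them.

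Of the 22 PHO regulon genes 19 could be compared, GIT1 and CTF19 being listed in none of the 4 libraries and PHM7 in 1. At least 2-fold above 0 min were 7 at 15 min, 11 at 30 min and 13 at 45 min, against the 2.27%, 3.22% and 3.62% of all genes given above, and none was 2-fold below. Their median difference was 0.72, 1.15 and 1.39 over the 3 times, against 0.03, 0.02 and 0.04 over all genes, and it was 1.35, 1.49, 1.80 and 1.87 at 60 to 105 min. The share of all reads taken by the regulon was 0.318%, 0.630%, 0.876% and 1.01% in the 4 libraries in time order. It split into 5 immediate genes, 7 growing ones and 7 that met neither rule.

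Uptake genes showed both an instant and a delayed course. PHO84, the high-affinity phosphate transporter driven by protons, was at 6.88, 8.85, 9.17 and 9.26 log2 RPM at 0, 15, 30 and 45 min. Nearly all of that difference stood at 15 min, with 1.97 [1.72, 2.21], against 2.38 [2.13, 2.62] at 45 min. A noncoding gene, YNCM0001W, overlaps PHO84, and with no strand of counting stated, reads of the pair cannot be told apart. PHO89, the high-affinity transporter driven by sodium, was at 6.12, 6.08, 6.50 and 7.36 log2 RPM. It was level with 0 min at 15 min, at -0.04 [-0.46, 0.38], and 1.24 [0.90, 1.59] above it at 45 min. It was at 7.47, 7.81, 8.19 and 8.71 at 60, 75, 90 and 105 min, higher at each step.

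SPL2, a small protein that downregulates low-affinity phosphate transport, had the largest difference at 30 and at 45 min. Its levels were 5.62, 7.31, 8.41 and 8.75 log2 RPM, or 8.77-fold above 0 min at 45 min. Such rankings are over genes whose difference has a counting SE of at most 0.35, called here the counting limit. PHO86, an endoplasmic reticulum protein needed to send Pho84 to the plasma membrane, was at 7.05, 8.12, 8.29 and 8.44. The first 15 min held most of its difference, as for PHO84. The low-affinity transporters behaved otherwise, with none of 3 at 2-fold in either direction. At any of these times at most 3.62% of all genes were 2-fold higher and 2.37% lower, so none of 3 is near that share. PHO90 was at 6.93, 6.63, 6.35 and 6.38 log2 RPM, lower than 0 min by more than counting error at 45 min (-0.55 [-0.90, -0.19]). PHO87 was at 5.40, 5.55, 5.30 and 5.24 and PHO91, which exports phosphate from the vacuole, at 6.54, 6.77, 6.77 and 6.47, both within counting error of 0 min at 45 min.

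Polyphosphate, a chain of phosphates stored in the vacuole, is made by the VTC complex, and its subunits did not keep the same pace. VTC3, a regulatory subunit, was at 7.98, 10.01, 10.24 and 10.34 log2 RPM, already 4.08-fold above 0 min at 15 min. VTC4, which carries the polymerase, was at 7.54, 9.22, 9.54 and 9.56 and had the same early step. VTC1, the small membrane subunit, was at 9.06, 9.93, 10.39 and 10.70, so that 45 min stood 0.78 above 15 min, the growing course. VTC2, the other regulatory subunit, was at 7.82, 8.57, 8.97 and 8.87, with the smallest difference of the 4 at 45 min (1.04 [0.85, 1.24]). PPN1 and PPX1, which break polyphosphate down, stayed closer to 0 min. DDP1, a phosphatase that also acts on polyphosphate, is given below. PPN1, an endopolyphosphatase, was at 7.22, 7.56, 7.59 and 7.50 log2 RPM, and PPX1, the exopolyphosphatase, named after its values were seen, at 7.35, 7.11, 7.48 and 7.47. VTC1 to VTC4 were the 4 of 8 polyphosphate genes at least 2-fold higher at 45 min, against 3.62% of all genes. YDR089W and YNL217W, also on that list, reached 2-fold at none of the 3 times.

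The secreted acid phosphatases, which free phosphate outside the cell, differed among themselves. At the 3 times 1, 2 and 2 of 4 were at least 2-fold higher, against 2.27%, 3.22% and 3.62% of all genes. PHO12 was at 8.17, 9.48, 10.35 and 10.62 log2 RPM at 0, 15, 30 and 45 min. PHO11 was at 7.60, 8.01, 9.39 and 9.73, with the main step between 15 and 30 min. As near-identical copies these genes may share reads, so the split between them is uncertain. PHO5, the major acid phosphatase, was at 8.62, 8.74, 9.12 and 9.28, only 0.66 [0.50, 0.81] above 0 min at 45 min. It then stood at 9.82, 10.21, 10.64 and 10.99 at 60 to 105 min, higher at each library. PHO3, its close relative outside the Pho4 regulon, was at 7.64, 7.31, 7.18 and 6.86, below 0 min by 0.78 log2 units at 45 min (-0.78 [-1.07, -0.49]).

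Of 5 phosphatase genes listed as acting inside the cell, 0, 1 and 2 stood at least 2-fold above 0 min. Over all genes 2.27%, 3.22% and 3.62% did. PHO8, the vacuolar alkaline phosphatase, was at 5.34, 5.65, 6.55 and 6.80 log2 RPM and passed 2-fold at 30 min. HOR2, a glycerol phosphatase with a close copy in the genome, was at 6.17, 6.90, 6.72 and 7.60 and passed it at 45 min. PHM8, a nucleotide phosphatase, was at 5.96, 6.10, 6.46 and 6.71, and DDP1, a polyphosphate and inositol pyrophosphate phosphatase, at 6.40, 6.90, 7.05 and 7.26. Neither of these reached 2-fold by 45 min. GDE1, which breaks down glycerophosphocholine, was at 5.68, 6.04, 6.46 and 6.25, and PHM6 was at 7.54, 7.62, 8.11 and 8.39.

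Among 9 signalling genes PHO81 alone reached 2-fold. At the 3 times 2.27%, 3.22% and 3.62% of all genes were that much higher. PHO81 was at 6.43, 7.52, 7.51 and 7.67 log2 RPM, and most of the difference stood at 15 min (1.09 [0.77, 1.41]). KCS1, an inositol hexakisphosphate kinase, was at 6.32, 6.34, 6.30 and 6.30, flat through 45 min. VIP1, which also makes inositol pyrophosphates, was at 6.00, 6.25, 6.19 and 6.37, within counting error of 0 min. PHO4 itself, named after its values were seen, was at 5.22, 5.16, 5.14 and 5.82, level with 0 min until 30 min. The median of the 9 genes was 0.09, 0.20 and 0.36 at the 3 times.

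**Figure D2:**
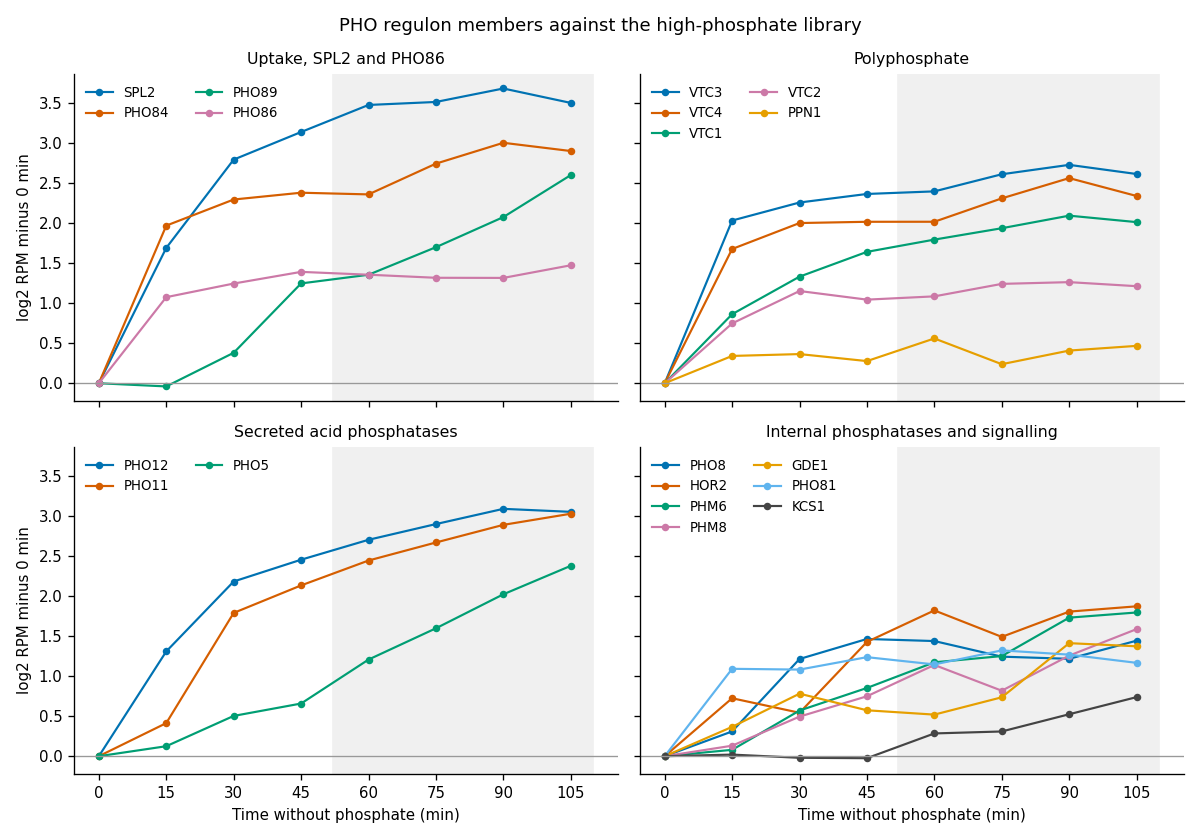
Level minus the level at 0 min (log2 RPM, y axis) against time without phosphate (min, x axis) for 19 PHO regulon genes, 1 library per point. The white part is the first 45 min and the grey part the later libraries. PHO84, SPL2, VTC3, VTC4, PHO12, PHO86 and PHO81 stand past 1 at 15 min. PHO89, PHO5 and PHM6 start near 0 and are highest at 105 min.

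Among lists other than the PHO regulon, the general stress response held the largest higher group, and it shares PHM8 with that regulon. Of 55 compared, 16, 24 and 29 stood at least 2-fold above 0 min at the 3 times, and none below. Of all genes 2.27%, 3.22% and 3.62% stood that far above. The list's median was 0.68, 0.93 and 1.03. RTC3 was at 4.74, 6.79, 7.40 and 7.65 log2 RPM, and at 6.99, 6.31, 6.44 and 7.06 at 60 to 105 min, a peak at 45 min. HXK1, a hexokinase, was at 6.30, 7.48, 8.37 and 8.76 and still at 8.96 at 105 min. An open reading frame beside it, YFR052C-A, kept within 0.04 log2 units of it in all 8 libraries, so the same reads may be counted for both. Catalase T, CTT1, a textbook stress gene named after its values were seen, was at 4.40, 4.13, 4.42 and 4.62 and did not share this course.

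Trehalose and glycogen, the reserve sugars, followed with medians of 0.55, 0.69 and 0.93 over 18 genes, of which 3, 4 and 6 were at least 2-fold higher. TPS2, trehalose phosphatase, was at 5.07, 6.41, 6.44 and 6.38 log2 RPM, an immediate course. TSL1, a regulatory subunit of the same synthase complex, was at 4.66, 5.53, 6.18 and 6.56, a growing one. Of 25 chaperone genes 2, 6 and 5 were at least 2-fold higher, with medians of 0.22, 0.75 and 0.69. For comparison with both lists, 2.27%, 3.22% and 3.62% of all genes were that much higher. HSP82, the inducible Hsp90, was at 8.12, 9.20, 9.97 and 10.31, and SSA4, an inducible Hsp70, at 4.95, 5.60, 6.39 and 6.85, both growing and both with close copies in the genome. HSP42, a small heat-shock protein, was at 4.74, 6.68, 6.95 and 6.59, high from 15 min. Lists can share members, so their counts are not of separate genes. TPS1, TPS2, TSL1, GSY2 and PGM2 are also on the stress response list. So are the chaperone genes HSP26, HSP42, HSP78, HSP104, SSA3, SSA4 and SSE2.

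Other stress-related lists had fewer genes at 2-fold. Of 20 oxidative stress genes 2, 2 and 1 were at least 2-fold higher, against 2.27%, 3.22% and 3.62% of all genes, with medians of 0.25, 0.30 and 0.40. GTT2, a glutathione transferase, was at 5.10, 6.74, 6.68 and 6.65 log2 RPM, and ATR1, a multidrug efflux protein, at 6.32, 7.36, 7.49 and 7.25. Of 19 autophagy and vacuolar protease genes 1, 4 and 4 passed 2-fold, with medians of 0.44, 0.43 and 0.66. LAP4, vacuolar aminopeptidase I, was at 5.74, 6.45, 6.79 and 7.27. None of the 33 proteasome genes reached 2-fold, yet 33, 32 and 33 of them lay above 0 min, with medians of 0.22, 0.33 and 0.43. For comparison 2641, 2573 and 2644 of all 4971 genes lay above 0 min. The letters GGTGGCAAA, bound by the proteasome gene activator Rpn4, were in 63.6% of the proteasome windows, against 1.59% of all.

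Ribosome biogenesis, the assembly of ribosomes in the nucleolus, made up the largest lower group among the lists. Of 112 genes 4, 17 and 28 stood at least 2-fold below 0 min at 15, 30 and 45 min. Of all genes 1.11%, 1.51% and 2.37% did. None of the 112 stood 2-fold above, and at 45 min none of them lay above 0 min at all. Their median was -0.47, -0.67 and -0.77, and -0.58, -0.52, -0.53 and -0.49 at 60, 75, 90 and 105 min, so the lowest point was at 45 min. By course 3 were immediate, 20 growing and 2 receding. The list took 2.62% of the reads at 0 min, 1.71% at 30 min and 1.56% at 45 min, and 1.77% to 1.87% later. DBP2, an RNA helicase, was at 9.09, 8.55, 7.87 and 7.29 log2 RPM. DHR2, a helicase of the small subunit, was at 5.40, 4.88, 3.89 and 3.71, the last from only 16 reads. ENP1, needed to make the small subunit, was at 6.89, 5.84, 5.69 and 5.41, past 2-fold from 15 min on.

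The polymerases that transcribe ribosomal and transfer RNA had lower medians too. The 24 genes of RNA polymerases I and III had medians of -0.47, -0.58 and -0.70, with 0, 1 and 3 at least 2-fold lower. Of all genes 1.11%, 1.51% and 2.37% were that much lower. RPA135, the second largest subunit of polymerase I, was at 8.25, 7.59, 7.37 and 6.85 log2 RPM. The 33 genes for tRNA synthetases and initiation factors had medians of -0.14, -0.23 and -0.33. The 137 ribosomal protein genes, many of them near-identical pairs, had medians of -0.19, -0.21 and -0.23 and none at 2-fold. Since they are so abundant, this was 31.8%, 28.7%, 28.0% and 27.7% of all reads at 0, 15, 30 and 45 min. RPL5, which binds the 5S ribosomal RNA, was at 11.45, 11.08, 11.05 and 10.80.

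Central metabolism differed by branch. Of 46 TCA cycle and respiration genes 3, 6 and 8 were at least 2-fold higher and 1 was lower at each time. Of all genes 2.27%, 3.22% and 3.62% were higher and 1.11%, 1.51% and 2.37% lower, so 1 lower gene is near that share. The list had medians of 0.21, 0.27 and 0.33. CIT1, the mitochondrial citrate synthase, named after its values were seen, was at 6.17, 6.83, 7.48 and 7.65 log2 RPM. ACO1, aconitase, was at 7.11, 7.46, 8.52 and 9.22 log2 RPM. IDH1 and IDH2, the subunits of isocitrate dehydrogenase, were at 5.19, 5.28, 6.47 and 7.36 and at 5.79, 6.01, 7.19 and 7.62. CIT2, the peroxisomal citrate synthase, was at 5.79, 6.88, 7.54 and 7.65, the only one of these 5 past 2-fold at 15 min. At 105 min CIT1 stood at 7.15, ACO1 at 7.97, IDH1 at 6.24, IDH2 at 6.62 and CIT2 at 6.26, all lower than at 45 min. The lower gene, MAE1, the mitochondrial malic enzyme, was at 7.11, 5.69, 5.62 and 5.62. PYC1, a pyruvate carboxylase with a close copy, was at 7.12, 9.07, 9.06 and 9.32, and COX5B, the oxygen-poor form of a cytochrome oxidase subunit, at 5.93, 7.51, 7.29 and 7.55.

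Of 17 genes of glycolysis and fermentation 1, 0 and 1 were at least 2-fold higher, against 2.27%, 3.22% and 3.62% of all genes, so no count was above 1 gene, with medians of 0.31, 0.32 and 0.29. ENO1, an enolase with a close copy, was at 8.52, 9.76, 9.36 and 9.01 log2 RPM, a receding course. ALD6, cytosolic aldehyde dehydrogenase, was at 10.12, 11.42, 11.50 and 11.42, flat from 15 min. GUT2, mitochondrial glycerol-3-phosphate dehydrogenase, was at 3.95, 5.62, 6.26 and 5.88. Its 0 min value rests on few reads, as 10 reads there are 2.81. The glucose transporter HXT3 was at 9.13, 8.24, 8.26 and 8.30, lower but short of 2-fold.

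Biosynthetic lists differed in the sign of their medians. Of 28 sulfur and methionine genes 0, 4 and 6 were at least 2-fold higher, with medians of 0.36, 0.35 and 0.48. Of all genes 2.27%, 3.22% and 3.62% were that much higher. MET5, a sulfite reductase subunit, was at 4.98, 5.71, 6.13 and 6.38 log2 RPM, and MET32, a regulator of the pathway, at 3.49, 3.84, 4.93 and 5.36. MET17 of this pathway is deleted in the strain. The 45 Gcn4 amino acid synthesis genes had medians of -0.08, -0.17 and -0.27, with ARG1, argininosuccinate synthetase, at 6.16, 5.45, 5.14 and 4.67. Of 31 purine and pyrimidine genes, 2, 0 and 0 were at least 2-fold higher, against 2.27%, 3.22% and 3.62% of all genes. At least 2-fold lower were 1, 2 and 4, against 1.11%, 1.51% and 2.37%. ADE17, which closes the purine ring, was at 6.79, 8.12, 6.88 and 6.84, a spike at 15 min. ADE13, adenylosuccinate lyase, had the same shape at 7.01, 8.12, 7.13 and 7.11. AAH1, adenine deaminase, was at 8.12, 6.94, 6.76 and 6.64 and URA7, a CTP synthase, at 7.96, 7.31, 6.73 and 6.78.

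Of 16 phospholipid synthesis genes 1, 0 and 0 were at least 2-fold higher and 0, 1 and 1 lower, so no count was above 1 gene. The shares of all genes were 2.27%, 3.22% and 3.62% higher and 1.11%, 1.51% and 2.37% lower. OPI3 and CDS1 of this list are described below. The median of the 16 genes was 0.25 at 15 min, -0.04 at 30 min and -0.10 at 45 min, and -0.30, -0.59, -0.46 and -0.14 later. OPI3, a methyltransferase of phosphatidylcholine synthesis, was at 8.61, 9.81, 9.53 and 9.00 log2 RPM, then at 8.33, 7.98, 7.80 and 8.25. It went through 2-fold above 0 min and ended below it. CDS1, which makes CDP-diacylglycerol, was at 6.58, 6.41, 5.98 and 5.33, and OLE1, the fatty acid desaturase, at 8.47, 7.89, 7.09 and 7.22. CATGTGAA, the inositol-sensitive element, lay in 57.9% of the list's windows, against 1.71% of all.

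The iron and copper list, which holds uptake genes, metallothioneins and regulators, had 1, 3 and 4 of 26 genes at least 2-fold lower, against 1.11%, 1.51% and 2.37% of all genes, with medians of 0.07, -0.08 and -0.31, and -0.35, -0.48, -0.45 and -0.42 at 60 to 105 min. FRE1, a ferric and cupric reductase of the cell surface, was at 6.61, 5.34, 4.67 and 4.10 log2 RPM, the lowest difference of the genes under the counting limit at 45 min (-2.50 [-3.17, -1.84]). CTR1, the copper transporter, was at 5.44, 5.10, 4.18 and 4.17, and FET4, a low-affinity iron transporter, at 5.32, 4.62, 3.89 and 3.62. FET4 ended on few reads, as 10 reads at 45 min are 3.03. The 10 histone genes had medians of -0.33, -0.46 and -0.31 and none at 2-fold, and -0.11, 0.02, 0.04 and 0.05 at 60 to 105 min. G1/S genes, made as cells commit to division, were at -0.24, -0.08 and -0.03 over 23 genes. The share of cells in each phase was not measured, and its part in these values was not tested. The 11 housekeeping genes had medians of 0.03, -0.04 and -0.03.

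**Figure D3:**
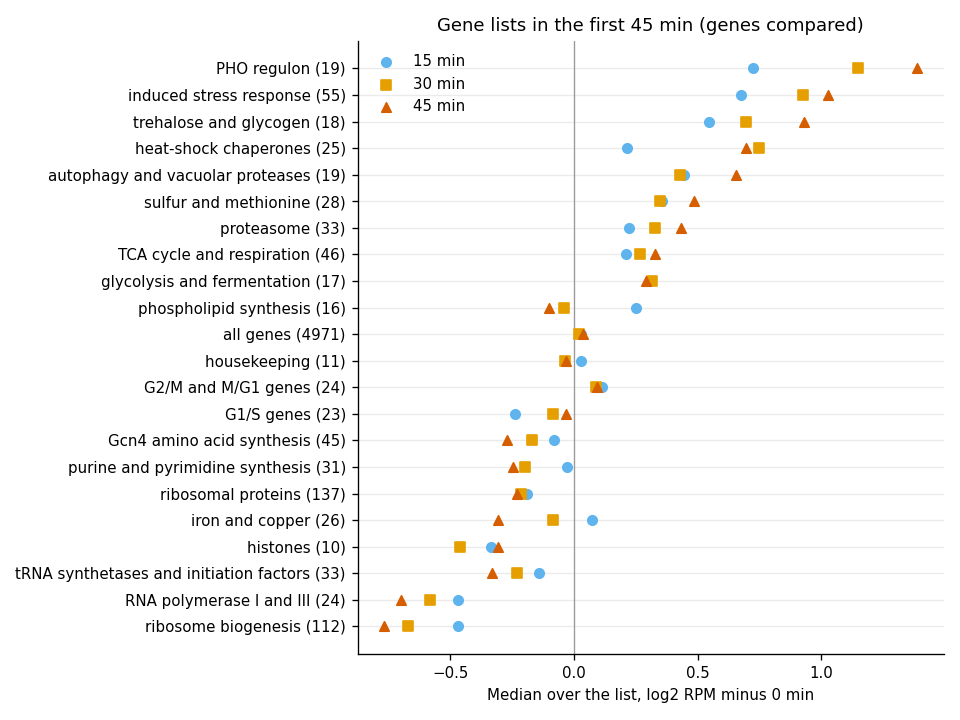
Median difference from 0 min (log2 RPM, x axis) at 15, 30 and 45 min for 22 gene lists (rows), with the number of genes compared in parentheses. The PHO regulon has the highest median at each time and ribosome biogenesis the lowest at 45 min, while all genes lie between 0.02 and 0.04.

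The genes with the largest defining difference of each kind span many functions. Besides PHO84, VTC3, PYC1 and HSP42, the 5 immediate higher genes include YPR036W-A, at 6.91, 8.61, 8.71 and 8.65 log2 RPM. NCE103, carbonic anhydrase, had the highest 15 min difference under the counting limit (2.20 [2.02, 2.38]). It was at 7.77, 9.97, 9.52 and 9.42 and counts as receding although it was still 3.14-fold above 0 min at 45 min. Immediate lower genes besides MAE1 and AAH1 were ECM1, an export factor of the large ribosomal subunit, at 6.92, 5.65, 5.69 and 5.78, and REI1, which matures that subunit, at 6.91, 5.80, 6.26 and 6.19. The fifth, YLR413W, was at 7.11, 5.99, 5.33 and 5.54.

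Growing higher genes were led by IDH1, ACO1, PHO11 and IDH2, then by DIC1, a mitochondrial dicarboxylate carrier. DIC1 was at 7.83, 7.41, 8.20 and 8.92 log2 RPM, below 0 min at 15 min and above it at 45 min. TMA10, which associates with ribosomes, was at 3.81, 5.28, 5.65 and 6.58, starting from 20 reads. Growing lower genes besides DBP2 and CDS1 were RLI1, an iron-sulfur protein of ribosome recycling, at 6.03, 5.97, 5.33 and 4.84, and TFB2, a TFIIH subunit, at 5.55, 5.58, 4.89 and 4.30. YDL241W was at 5.40, 5.92, 4.96 and 4.24. EFM1, a methyltransferase of elongation factor 1A, was at 6.40, 5.37, 5.33 and 4.84.

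Receding higher genes had the fewest reads of the 6 groups, with a median of 20 at 0 min. ADE17 and ADE13 apart, PLB1, a phospholipase B, was at 5.10, 6.48, 5.95 and 5.49 log2 RPM. APA2, which cleaves diadenosine tetraphosphate, was at 4.66, 5.82, 5.11 and 4.76, and TPK2, a catalytic subunit of protein kinase A, at 4.53, 5.06, 5.60 and 4.52. Receding lower genes were single dips of 1 library in several cases. COS2, of a subtelomeric family with close copies, was at 5.85, 6.26, 4.51 and 6.04, and BNR1, a formin, at 5.72, 4.67, 5.42 and 5.57. UME6, a regulator of meiotic genes, was at 5.64, 4.58, 5.52 and 5.27, and AQR1, a plasma membrane transporter, at 6.55, 5.28, 6.00 and 5.88. GCD10, a subunit of a tRNA methyltransferase, was at 6.85, 5.42, 5.67 and 5.96, the lowest difference under the counting limit at 15 min.

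The motif shares differed between kinds, as a description. AGGGG lay in 68.7% of the windows of immediate higher genes, 61.6% of growing and 62% of receding higher ones, against 40.7% of all. CACGTG lay in 22.1% of the windows of growing higher genes, and in 10.8% of those outside the PHO and sulfur lists, against 7.65% of all. AAAATTTT lay in 46.2% and GATGAG in 53.8% of the windows of growing lower genes, against 12.8% and 31.5% of all.

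**Figure D4:**
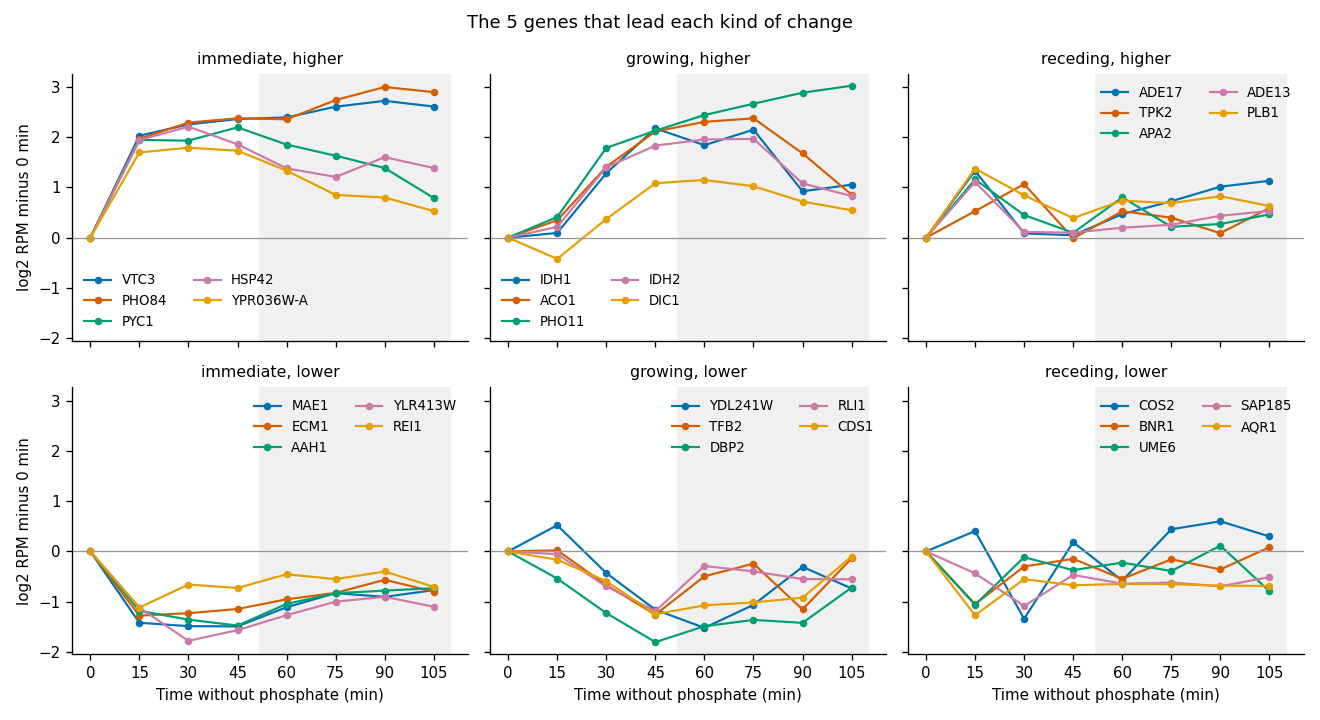
Level minus the level at 0 min (log2 RPM, y axis) against time (min, x axis) for the 5 genes that lead each kind of change, higher in the top row and lower in the bottom row, 1 library per point. The grey part, 60 to 105 min, was not used for the sorting. PHO84 and VTC3 stay high there, PYC1 and YPR036W-A come back toward 0, and ADE17 is higher again at 105 min than at 45 min.

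A gene without a value in a library lies below a floor of 10 reads and was not compared. Not listed at 0 min but listed at 15, 30 and 45 min were 34 genes, and listed at 0 min alone were 30, with 10 to 19 reads. YLR345W had 30, 19 and 36 reads at 15, 30 and 45 min, at least 4.20-fold higher at 45 min than the floor of the 0 min library. SDP1, a stress-induced MAP kinase phosphatase, had 36, 26 and 34 reads, at least 3.97-fold higher. SDH1, a subunit of succinate dehydrogenase, had 12, 13 and 24 reads, at least 2.80-fold higher, and SGA1, a glucoamylase, 23, 22 and 22, at least 2.57-fold higher. These 4 were named after their values were seen.

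A test was possible between the first 45 min and the libraries that followed. The 3 libraries at 15 to 45 min were set against the 4 at 60 to 105 min with limma, adjusted by the Benjamini-Hochberg method over 4674 genes listed in all 7. Neighbouring samples of 1 culture stand in for replicates, so these p-values measure the spread along the course only. At an adjusted p below 0.05, 35 genes (0.749%) were higher at 15 to 45 min and 27 (0.578%) lower, and 534 had an unadjusted p below 0.05. A plain eBayes prior, without trend and robust steps, called 0 higher and 0 lower, with 509 at an unadjusted p below 0.05. Without the 30 min library 10 were higher and 8 lower, without the 75 min library 21 and 14, and without the 90 min library 23 and 12. Without the 105 min library 13 were lower, and without the 45 or the 60 min library 44 and 42. All 62 calls kept their direction in each of these fits. For the plain eBayes prior this was fixed in advance, as the prior leaves differences unchanged. The others reuse libraries that made the calls, so direction had little room to change.

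Of the 35 higher genes, 9 had been sorted as immediate higher and 1 as receding higher, and the others were in none of the sorted kinds. Among all 4674 genes tested 67 were immediate higher and 41 receding higher. The sorting used the same 15 to 45 min values, so an overlap with immediate higher genes was favoured in advance. CUR1, a sorting factor for misfolded proteins, was at 6.62, 6.60 and 6.17 log2 RPM at 15, 30 and 45 min, against 5.46, 5.65, 5.52 and 4.93 at 60, 75, 90 and 105 min. It averaged 6.46 ± 0.25 (SD, n = 3) at 15 to 45 min and 5.39 ± 0.32 (SD, n = 4) at 60 to 105 min, a limma adjusted p of 0.000889. The windows do not overlap, and the level at 0 min was 5.19. ALD4, mitochondrial aldehyde dehydrogenase, averaged 8.69 ± 0.08 at 15 to 45 min and 7.85 ± 0.16 at 60 to 105 min, with 7.14 at 0 min (limma adjusted p = 4.47e-06). YPR036W-A averaged 8.65 ± 0.05 and 7.79 ± 0.33 over the same windows (limma adjusted p = 0.00296). FIT2, a cell wall protein of iron uptake, averaged 6.64 ± 0.16 at 15 to 45 min and 5.58 ± 0.16 at 60 to 105 min, with 6.26 at 0 min. CAR1, arginase, averaged 7.46 ± 0.08 and 6.59 ± 0.30, with 7.23 at 0 min, so both averaged below their 0 min level later on. DIP5, a permease for acidic amino acids, averaged 6.49 ± 0.22 and 5.64 ± 0.39.

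Of 20 oxidative stress genes 4 were higher at 15 to 45 min (GLR1, SOD1, ATR1 and GTT2), against 0.749% of all genes tested, and none lower. SOD1, copper-zinc superoxide dismutase, averaged 11.43 ± 0.04 log2 RPM at 15 to 45 min and 11.07 ± 0.09 at 60 to 105 min (limma adjusted p = 0.000321). Of 52 stress response genes 4 were higher (HSP42, ALD4, YGP1 and SPI1) and 1 lower (PHM8), against 0.749% and 0.578% of all genes tested. PHM8 is also on the PHO regulon list, so its call counts in both. The median difference of the 52 genes was -0.02, against -0.01 over all genes tested.

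Histone genes were the list with most lower calls, with 6 of 10 called, against 0.578% of all genes tested, and none higher. HHF1, an H4 gene, was at 10.18, 9.98 and 10.25 log2 RPM at 15, 30 and 45 min, against 10.46, 10.60, 10.60 and 10.67 at 60, 75, 90 and 105 min (limma adjusted p = 0.000321). The later libraries all lay higher, and the 0 min level was 10.58. The other 5 were HTA1, HTA2, HTB2, HHT1 and HHF2, with differences of -0.27 to -0.40. Pairs of histone genes are near-identical, so the split between copies is uncertain.

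Of the PHO regulon 0 of 19 were higher at 15 to 45 min and 2 lower, against 0.749% and 0.578% of all genes tested. The count of 0 higher is near that share. PHM8 averaged 6.42 ± 0.31 log2 RPM at 15 to 45 min and 7.16 ± 0.32 at 60 to 105 min (limma adjusted p = 0.0174). VTC3 averaged 10.20 ± 0.17 and 10.57 ± 0.14 (limma adjusted p = 0.011). The median difference of the 19 genes was -0.54. Of 75 growing higher and 74 growing lower genes tested none was called. Over all genes tested 0.749% were called higher and 0.578% lower, so these counts are near that share.

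Of the 45 Gcn4 amino acid synthesis genes 3 were lower at 15 to 45 min (HIS1, LEU1 and HOM3), against 0.578% of all genes tested, and none higher. LEU1, isopropylmalate isomerase, averaged 8.64 ± 0.05 log2 RPM at 15 to 45 min and 9.36 ± 0.18 at 60 to 105 min (limma adjusted p = 6.57e-06). HOM3, aspartate kinase, averaged 5.10 ± 0.37 and 5.85 ± 0.06. Outside that list, YOR338W averaged 4.01 ± 0.35 and 5.02 ± 0.30, the largest lower difference, from as few as 15 reads at 30 min. AST1, which helps sort the plasma membrane proton pump, averaged 4.39 ± 0.12 and 5.24 ± 0.19, and YBL068W-A had the same value in every library, so the same reads may stand behind both. Among 11 other fits, the plain eBayes prior apart, the calls of CUR1, ALD4, YPR036W-A, FIT2, CAR1, SOD1, HHF1, HHF2 and LEU1 held in all 11. Those of DIP5, HSP42, SPI1 and GTT2 held in 8, that of GLR1 in 7, and those of HTA2, HTB2, PHM8, VTC3 and YGP1 in 6. HOM3 was called in 5, YOR338W in 7 of 10 and AST1 in 3 of 10.

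**Figure D5:**
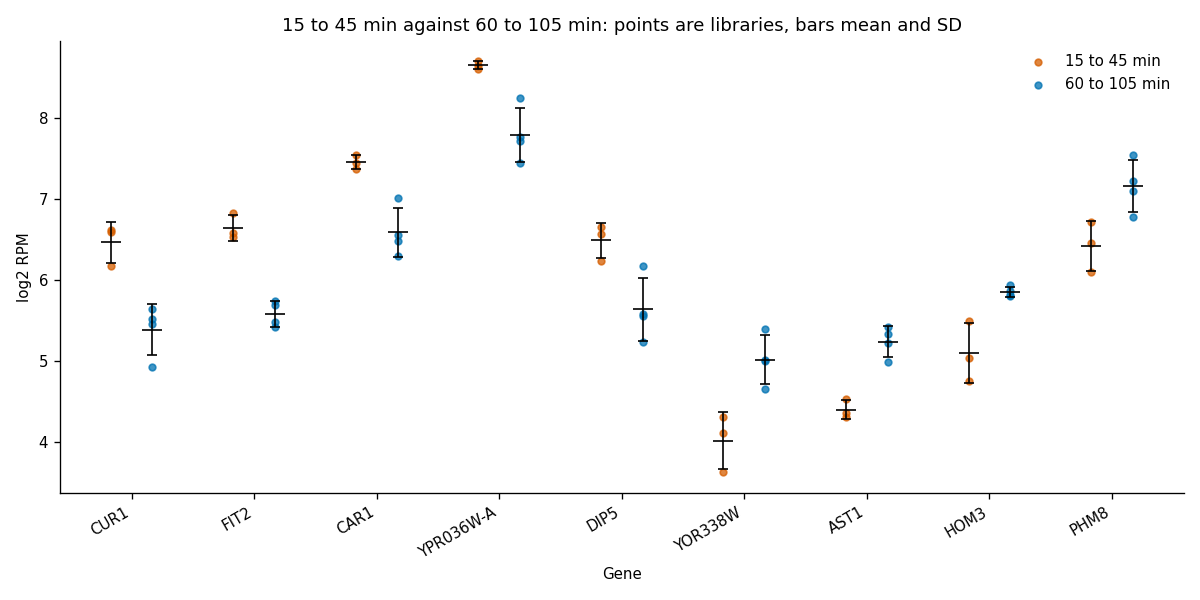
Levels in log2 RPM (y axis) of 9 genes (x axis) in the 3 libraries at 15 to 45 min (orange) and the 4 at 60 to 105 min (blue). Points are libraries, and bars give the mean and SD. The windows do not overlap in any of the 9 genes, with CUR1 to DIP5 higher at 15 to 45 min and YOR338W to PHM8 lower.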

How the data were processed

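RNA of the time course was sequenced and, per the submitters' processing notes, aligned with Bowtie to build R64. The counting tool, its strand setting and its handling of reads with several matches: not given in the sources used here. The deposited values are log2 values made by the authors; taken back to the linear scale they sum to 1000000 per library, hence log2 RPM. Of 6701 lines, 51 had no name. Read numbers were recovered from the spacing of low values, with the lowest listed value taken as 10 reads: 96.68% to 96.91% of the values below 400 RPM in the 4 libraries were whole multiples within 0.01. They set counting intervals only. No pseudocount was added. Differences, medians and counts were computed in Python 3.11.15 with pandas 2.3.3 and numpy 2.4.6, figures with matplotlib 3.10.9, and the windows were compared with limma 3.58.1 in R 4.3.3 (lmFit, eBayes with trend and robust, two-sided, threshold 0.05). The fit was tested on simulated data with independent libraries. The samples here are serial, so that test covers the fitting steps and not the calls.

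Coordinates and names came from RefSeq R64, which matched 5964 named genes. Named genes were the PHO regulon; the 5 largest defining differences of each kind and direction and the 5 highest and lowest at each time, each with a counting SE of at most 0.35; the 5 highest and lowest limma calls; and the 3 members of each of 39 lists farthest from 0 min. A gene named outside that rule for a list (CTT1, PHO4, PPX1, ALD4, SOD1, LEU1 and the other limma calls of a list among them) was picked after its values were seen. Members and lists were chosen with earlier results of these data known. Alternatives were centring on the median gene, 10 RPM added, 30 reads required, a fold of 0.6 and a margin of 0.3 log2 units, another later window and libraries left out.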

Additional observations from a re-analysis of the deposited data

How the results depend on the processing

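With 1 library per time, values against 0 min have no replicate check, and reads limit genes near the floor, where the counting SD is 0.46 log2 units. Adding 10 RPM left 62, 69 and 99 genes higher and 10, 25 and 50 lower at 15, 30 and 45 min, and 44 and 8 immediate, 47 and 31 growing, and 11 and 5 receding genes (higher, then lower). At least 30 reads in each library left 71, 92 and 110 higher and 14, 36 and 70 lower, with 9 immediate lower, 46 and 49 growing, and 17 and 8 receding. A fold of 0.6 log2 units gave 441, 527 and 583 higher and 294, 394 and 480 lower, with 311 and 185 immediate, 189 and 205 growing, and 136 and 157 receding. A margin of 0.3 left 15 immediate lower genes, and without the 30 min library 32 and 27 receding genes were found, since a peak there is then not seen. With centring, 10 RPM added or 30 reads required, the PHO regulon counts stayed within 1.5 times 7, 11 and 13, and centring on the median gene moved no count by more than that. For 15 to 45 against 60 to 105 min, ending the later window at 90 min, the same fit as leaving out 105 min, gave 30 higher and 13 lower. The plain eBayes prior gave 0 and 0. Leaving out each library gave 10 to 49 higher and 8 to 44 lower genes. The cause of these shifts was not tested. No limma call, no named gene difference beyond its counting interval and no list median of at least 1 log2 unit changed sign. Smaller values were not held to that rule. No paired analysis was possible because each time has 1 library and the labels give no replicate numbers.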
